A study of Mus musculus with 4 samples.

Results

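Interferon-responding B cells are B lymphocytes that carry transcripts switched on by interferon, and they were found here in draining lymph nodes of mice with and without injected extracellular vesicles (EVs). They were chosen by their UMI counts, where a UMI (unique molecular identifier) marks 1 captured mRNA molecule. A barcode was kept as a cell with 200 to 5000 detected genes, at most 20000 UMIs and under 10% mitochondrial UMIs. A cell without any UMI of Cd3d, Cd3e or Cd3g, the T cell receptor chains of the CD3 complex, and with at least 1 UMI of Cd79a, a signalling chain of the B cell receptor, was taken as a B cell. Among these, a cell with 2 or more UMIs of Ifit1, Ifit3 and Rsad2 together was taken as interferon-responding. This left 270 interferon-responding cells among 14119 B cells and 32725 cells in all, from 34323 deposited barcodes. Since these 3 genes chose the cells, their levels and those of the genes that move with them are given below as a description.

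The libraries came from C57BL/6 wildtype mice, 2 controls (Control 1 and 2) and 2 given 100 µg of EVs under the skin (EV 1 and 2). The EVs came from induced pluripotent stem cells (iPSCs), and the study calls its iPSC EVs human where it tests them on mouse cells. Each library was called a biological replicate in the study. The sample labels record a treatment of 24 h and controls with no treatment, whereas the series text gives day 5 for the nodes and the study's methods name PBS for the controls. The labels do not say whether a library held 1 mouse or several, and no cells were enriched before capture. Control 1, Control 2, EV 1 and EV 2 held 50749656, 58100433, 68116085 and 70418672 UMIs, so that the EV libraries were the deeper ones. Each pair of libraries shared between 12 and 26 cell barcodes.

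Interferons are cytokines that cells release on sensing viral nucleic acid or other danger signals. Type I interferons act through a receptor present on nearly all cells, which switches on the JAK-STAT pathway. STAT transcription factors, together with IRF9, then bind interferon-stimulated response elements in promoters and drive antiviral effectors, nucleic acid sensors and antigen presentation, while feedback genes such as Usp18 and Socs1 dampen the receptor. B cells respond with the same core genes as most other cell types, and type I interferon also lowers the threshold at which they are activated.

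The genes that chose the cells are antiviral effectors. Ifit1 and Ifit3 encode proteins with tetratricopeptide repeats that act on viral RNA, and Rsad2 encodes viperin, which makes a chain-terminating nucleotide. Isg15, a ubiquitin-like protein that is attached to other proteins, was a marker of these cells but not part of their selection. Their promoters are shown because the genes move together. Each line holds 300 bases from the RefSeq annotation of GRCm38.p6, the patch release of the build named mm10 in the deposited files, from 250 bases before the transcription start to the first 50 bases of the transcript, on the strand of the gene. Capitals mark the core of an interferon-stimulated response element, which is GAAA, any 2 bases and GAAA again, or its reverse complement (TTTC, 2 bases, TTTC), and in Isg15 overlapping matches run together.
Ifit1 (chr19:34640639-34640938, plus strand): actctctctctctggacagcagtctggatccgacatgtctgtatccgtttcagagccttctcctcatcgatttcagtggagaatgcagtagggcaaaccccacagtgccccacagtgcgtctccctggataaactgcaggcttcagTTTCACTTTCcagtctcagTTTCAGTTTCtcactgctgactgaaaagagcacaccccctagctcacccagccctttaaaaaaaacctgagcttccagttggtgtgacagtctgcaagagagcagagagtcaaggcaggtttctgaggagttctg
Ifit3 (chr19:34583279-34583578, plus strand): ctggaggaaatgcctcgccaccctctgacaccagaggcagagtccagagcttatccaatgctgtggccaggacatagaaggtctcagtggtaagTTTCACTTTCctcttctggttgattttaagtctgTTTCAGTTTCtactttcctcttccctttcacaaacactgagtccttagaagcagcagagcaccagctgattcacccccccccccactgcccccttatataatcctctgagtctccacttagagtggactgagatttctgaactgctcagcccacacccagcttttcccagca
Rsad2 (chr12:26456403-26456702, minus strand): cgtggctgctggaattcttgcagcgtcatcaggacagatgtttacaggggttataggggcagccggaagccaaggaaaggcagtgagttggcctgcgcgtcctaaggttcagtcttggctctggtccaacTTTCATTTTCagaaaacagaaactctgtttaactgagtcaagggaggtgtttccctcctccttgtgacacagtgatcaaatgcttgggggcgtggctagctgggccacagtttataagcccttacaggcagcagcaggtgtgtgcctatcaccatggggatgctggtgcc
Isg15 (chr4:156200769-156201068, minus strand): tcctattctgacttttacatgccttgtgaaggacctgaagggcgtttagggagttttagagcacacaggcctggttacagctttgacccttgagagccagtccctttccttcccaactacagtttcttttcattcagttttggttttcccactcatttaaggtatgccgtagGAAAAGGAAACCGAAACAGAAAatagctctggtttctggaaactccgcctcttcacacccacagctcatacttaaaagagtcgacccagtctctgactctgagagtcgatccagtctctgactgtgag
Ifit1 and Ifit3 held 2 matches each, Rsad2 1 and Isg15 3, whereas the same window of Irf7, an interferon-induced factor described below, and that of Cd79a held 0. Of all 32851 promoter windows in the table, 3.44% held at least 1 match. A match describes the letters in the window and does not show that a factor binds there.

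The share of B cells that were interferon-responding was higher after EVs. It was 13 of 2878 B cells in Control 1 (0.452%, exact 95% interval 0.241% to 0.771%) and 18 of 2406 in Control 2 (0.748%, 0.444% to 1.18%). In EV 1 it was 119 of 4672 (2.55%, 2.11% to 3.04%) and in EV 2 120 of 4163 (2.88%, 2.40% to 3.44%). The control and EV libraries did not overlap, and the intervals, which cover counting error only, did not overlap between groups either. The mean share was 0.600% ± 0.210 (SD, n = 2) in controls and 2.71% ± 0.237 (SD, n = 2) after EVs, a 4.53-fold ratio. An exact two-sided permutation test gave p = 0.33, the smallest p that 2 libraries against 2 can give.

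The gap was also present at matched depth. Cells with at least 2000 UMIs were thinned to 2000 and gated anew, and cells with fewer were left out. A cell whose CD3 UMIs were not drawn could thus count as a B cell. The share was then 7 of 2902 (0.241%) and 6 of 2386 (0.251%) in Control 1 and Control 2. It was 44 of 4696 (0.937%) and 51 of 4171 (1.22%) in EV 1 and EV 2, a ratio of 4.38. With cells of 2000 to 8000 UMIs the ratio was 4.29, and with cells called doublets by Scrublet removed it was 4.68. A gate of 1 UMI gave a ratio of 2.59 and a gate of 3 UMIs 4.31. The groups did not overlap under any of these settings, and leaving out each library in turn gave differences of 1.947 to 2.283 percentage points, against 2.115 with all 4, and ratios of 3.63 (without Control 1) to 6.01 (without Control 2).

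**Figure D1:**
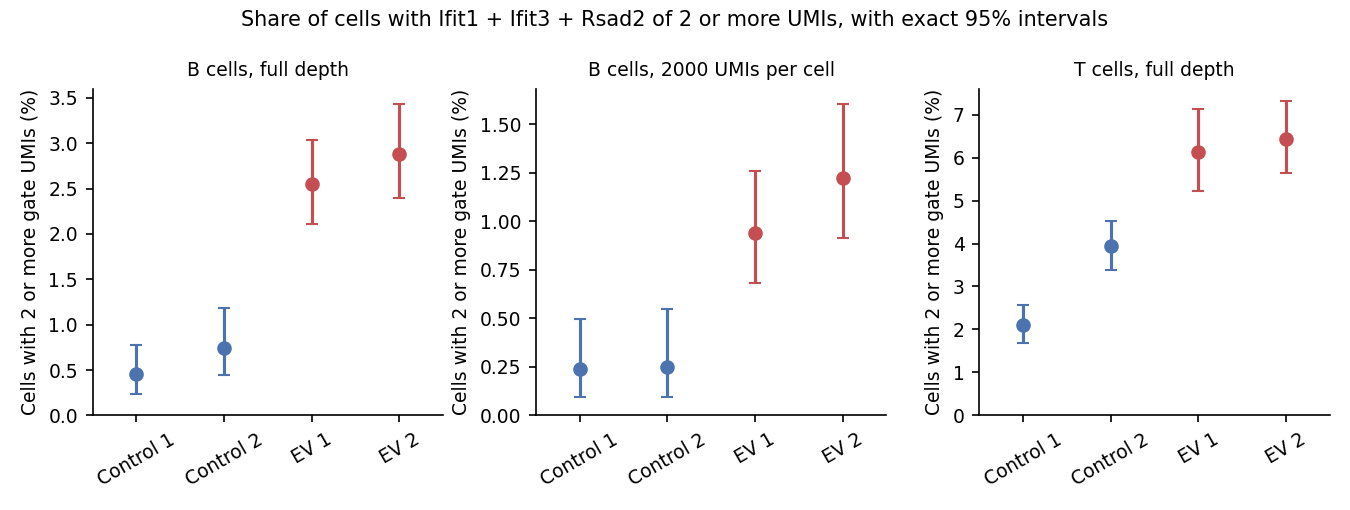
Each panel plots the percentage of cells with 2 or more UMIs of Ifit1, Ifit3 and Rsad2 together in each library, with exact 95% intervals that cover counting error; blue is Control and red is EV. The EV libraries lie above the control libraries among B cells at full depth, among B cells thinned to 2000 UMIs and among T cells.

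Of the cells of each library, B cells made up 35.4% (Control 1), 30.5% (Control 2), 57.2% (EV 1) and 48.8% (EV 2). Interferon-responding B cells are given as a share of B cells for this reason. The same gate was set on T cells, here cells with a CD3 UMI and no Cd79a UMI. It took 2.10% and 3.93% of the T cells in the controls and 6.13% and 6.44% after EVs, a ratio of 2.08 without overlap, which was 3.21 in cells thinned to 2000 UMIs and 2.84 with a gate of 3 UMIs. With these 3 genes the share among B cells was thus below that among T cells in all 4 libraries. With a gate on Cmpk2, Usp18 and Oasl1 it was below in 3 libraries but not in EV 2, where 7.28% of B cells and 6.82% of T cells passed. The B cell share divided by the T cell share of the same library was 0.216 and 0.190 in the controls and 0.416 and 0.448 after EVs, which did not overlap (exact permutation p = 0.33, the smallest possible). The size of this gap depended on the genes and the depth, since the ratio of EV to Control means of the quotient, 2.13 at full depth, was 1.37 in thinned cells and 1.25 with the gate on Cmpk2, Usp18 and Oasl1.

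The chosen cells were checked against defining transcripts of B cells that did not enter their selection. Cd79b, the partner of Cd79a, was seen in 13 of 13, 17 of 18, 115 of 119 and 119 of 120 cells of Control 1, Control 2, EV 1 and EV 2. Ms4a1, which encodes CD20, was seen in 13, 17, 115 and 117 of them. Cd79a, which the rule required in both classes, stood at 2357, 1935, 2219 and 2189 UMIs per 1000000 UMIs of the class (CPM) against 2321, 2293, 2330 and 2236 CPM in the other B cells. Ebf1, a transcription factor of B cell identity, was called lower by a small step, at 3404, 3054, 3030 and 3037 CPM against 3484, 3505, 3556 and 3808 CPM (log2 difference -0.22 ± 0.07, adjusted p = 0.049 by edgeR, lower in all 4 libraries). The median depth of the cells inside the gate was 4362, 4827, 6542 and 5807 UMIs, against 4123, 4880, 5784 and 5597 in the other B cells of the same libraries. Mitochondrial transcripts were 3.20%, 2.77%, 3.57% and 3.78% of their UMIs, against 3.28%, 3.19%, 3.47% and 3.86%. For scale, 10.8%, 8.46%, 19.4% and 15.8% of the cells with a CD3 UMI also held a Cd79a UMI, in the same order of libraries. Of the 270 interferon-responding B cells, 2 rested on a single Cd79a UMI, both in EV 1.

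Markers of other cell types were sparse but not absent. The list of 9 T cell markers summed to 1, 12, 33 and 34 UMIs in the 4 libraries, or 15.4, 110, 36.4 and 42.9 CPM, with Lck or Trac the most abundant. The 9 monocyte and macrophage markers summed to 2, 1, 409 and 149 UMIs, of which Lyz2, the lysozyme gene of myeloid cells, gave 0, 1, 368 and 108. A single cell held 347 of the Lyz2 UMIs of EV 1, and a single cell 101 of those of EV 2. Without the cells holding 5 or more Lyz2 UMIs, 2 in each EV library, Isg15 stood at 317 in place of 336 CPM in EV 1 and at 208 in place of 216 CPM in EV 2, and the effector list described below summed to 18546 in place of 18543 CPM and to 19679 in place of 19644 CPM. NK cell markers summed to 1, 66, 1 and 2 UMIs, and 1 cell of Control 2 held all 35 of its Gzma UMIs. The neutrophil list summed to 0, 1, 4 and 5 UMIs and the erythroid list to 0, 2, 1 and 0, with S100a8 and Hba-a1 at 0 in Control 1. The 6 plasmacytoid dendritic cell markers summed to 33, 32, 354 and 305 UMIs, of which Tcf4, a gene B cells also express, was 33, 31, 346 and 296. Tcf4 stood at 508, 284, 381 and 373 CPM inside the gate against 283, 285, 214 and 230 CPM in the other B cells and was called higher (log2 difference 0.71 ± 0.10), being higher in 3 of the 4 libraries and not in Control 2. Requiring at least 2 UMIs of B cell genes and no T cell, myeloid or plasmacytoid gene left 12, 17, 108 and 113 cells and a ratio of 4.50 between the group means of the share.

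Ifit3 was the gene most often seen among those of the gate. It had a UMI in 11, 16, 102 and 111 of the 13, 18, 119 and 120 cells, Ifit1 in 6, 4, 67 and 58, and Rsad2 in 5, 4, 54 and 54. All 3 were seen together in 2, 0, 29 and 22 cells. The sum of the 3 ran from 2, the limit, up to 35 UMIs in a cell. Just inside the limit, cells with 2 UMIs numbered 4, 6, 41 and 44, and just outside it, cells with 1 UMI numbered 39, 53, 166 and 139. Cells with 10 or more numbered 3, 1, 19 and 12. The effector list held 12447, 13439, 14119 and 13993 CPM in cells with 2 UMIs, 8862, 9781, 11007 and 11581 CPM in those with 1, and 4742, 4745, 5970 and 5667 CPM in those with 0. The gate therefore cut through a range, with the cells just outside it lying between the cells with 0 and those inside.

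In the cells inside the gate, Ifit1 stood at 262, 91.7, 196 and 143 CPM, Ifit3 at 616, 486, 430 and 490, and Rsad2 at 92.4, 91.7, 141 and 129. These levels follow from the selection. Over all B cells, gated or not, Ifit1 stood at 2.02, 1.49, 6.89 and 5.47 CPM in Control 1, Control 2, EV 1 and EV 2, Ifit3 at 4.97, 6.74, 16.9 and 18.6 CPM and Rsad2 at 0.932, 1.65, 5.14 and 4.96 CPM. Both EV libraries lay above both controls for each of the 3. These are the molecules that set the gated share, so the levels are a description and no second line of evidence. Over all B cells, 207 of 13126 genes, these 3 included, were called between EV and Control at an adjusted p under 0.05 (edgeR's quasi-likelihood test with Benjamini-Hochberg adjustment, as in every such test below), which is 1.58%, with 140 of them (1.07%) higher and 67 (0.510%) lower after EVs.

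Cells inside the gate carried a broad set of effectors and not only the 3 genes that chose them. A list of 59 interferon-induced antiviral effectors without these 3 was used, of which 56 were analysed here. Per 2000 UMIs, the median cell inside the gate held UMIs of 20, 18.5, 18 and 20 of them in Control 1, Control 2, EV 1 and EV 2. Cells with 1 gate UMI held 10, 11, 12 and 12, and cells with 0 held 6, 6, 7 and 7. The control libraries thus gave medians in the same range as the EV libraries inside the gate, from 13 and 18 cells. Effector UMIs per 10000 UMIs of a cell had medians of 215, 163, 181 and 202 and ran from 21.9 to 652, both ends being in EV libraries.

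**Figure D2:**
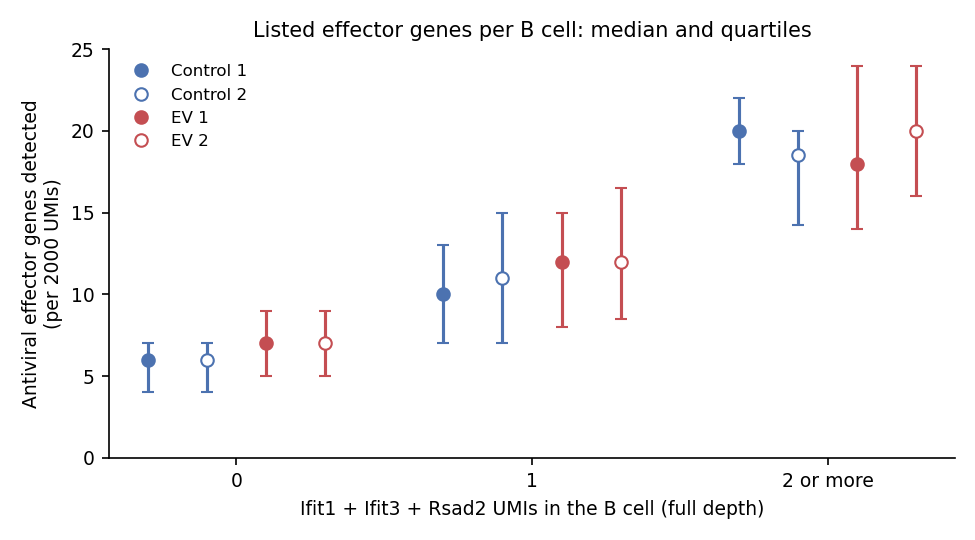
Number of listed antiviral effector genes with a UMI per B cell (vertical axis), after thinning cells with at least 2000 UMIs to 2000. The horizontal axis gives the cell's UMIs of Ifit1, Ifit3 and Rsad2 at full depth, and points are median and quartiles for each library. Within each class of gate UMIs the medians of the 4 libraries lie within 2 genes of each other.

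Genes of the interferon-responding cells were then set against the other B cells of the same libraries, with counts summed per library and class and library as a block. Because the gate was set on genes that move with this response in the same cells, the result is a description and the calls carry no weight as a test. Of 11012 genes tested, 508 were called (4.61%), 433 of them higher, which is 3.93%, and 75 lower, which is 0.681%. The largest rises were in named effectors and sensors. Ifit2, a relative of Ifit1, stood at 200, 138, 206 and 225 CPM in Control 1, Control 2, EV 1 and EV 2, against 5.15, 5.85, 5.96 and 6.09 CPM in the other B cells (log2 difference 5.12 ± 0.20, SE). Usp18, which removes ISG15 from proteins and blocks the type I receptor, stood at 246, 165, 227 and 230 CPM against 6.33, 6.95, 11.9 and 10.9 CPM (4.48 ± 0.18). Slfn5 of the Schlafen family stood at 647, 294, 550 and 491 CPM against 16.9, 20.9, 38.2 and 29.0 CPM (4.11 ± 0.12). Every library showed these 3 genes higher inside the gate. Ifit3b, a near-identical neighbour of Ifit3 whose reads may be split between copies, had a log2 difference of 6.99 ± 0.42. The other leading rises were Trim30c, Oas3, Isg15, Ifitm3, Oasl2, Ifih1, Oas2, Ifit1bl1, Rtp4, Phf11a and Lgals3bp, with log2 differences between 4.82 for Trim30c and 3.46 for Lgals3bp. Oas2 and Oas3 make the oligoadenylates that activate RNase L, Ifitm3 blocks viral entry at endosomes, and Rtp4 is a chaperone of receptors.

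Of the 56 effectors analysed, 50 passed the filter on low counts. The median of their log2 differences was 2.58, against -0.04 over all genes tested. All 50 were called higher, and 49 were higher in each of the 4 libraries, the exception being Slfn1, at 0 in Control 1. The smallest was Ly6e, at 0.24 ± 0.08 in log2, a surface protein gene that most B cells express, with 1525, 1256, 1701 and 1586 CPM inside the gate and 1279, 1224, 1395 and 1318 CPM outside it.

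Some members of the signalling machinery were higher together with its targets. Of 18 genes for interferon receptors, JAK-STAT signalling and feedback, 6 were called higher, against 3.93% of all genes tested, among them Usp18, Socs1, Stat2, Irf9 and Irf1, and the list's median log2 difference was 0.08. Socs1, which inhibits the JAK kinases, stood at 61.6, 36.7, 75.0 and 45.4 CPM against 5.31, 6.72, 16.7 and 15.8 CPM. Stat2 and Irf9, which act together in type I interferon signalling, differed by 1.82 ± 0.14 and 1.32 ± 0.16 in log2. All 6 genes were higher inside the gate in each library, as were 5.30% of all genes tested, whereas none of the 12 others was called.

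Among nucleic acid sensors and interferon regulatory factors, 6 of 18 were called higher, against the same 3.93%. Irf7, the factor that amplifies type I interferon production, stood at 169, 174, 184 and 199 CPM against 9.06, 10.3, 21.0 and 19.3 CPM (log2 difference 3.46 ± 0.17). The cytosolic RNA sensors Ifih1 (MDA5), Dhx58 (LGP2) and Ddx58 (RIG-I) differed by 4.01 ± 0.41, 2.61 ± 0.29 and 1.98 ± 0.12, and the endosomal RNA receptors Tlr3 and Tlr7 by 3.16 ± 0.53 and 2.01 ± 0.18. Tlr3 had no UMI inside the gate in Control 1 and was higher in the other 3 libraries. The guanylate-binding proteins and immunity-related GTPases, which attack the membranes of vacuoles that hold microbes, were called higher in 11 of 13 tested, against 3.93% of all genes tested, with a median log2 difference of 2.14. Ifi47 stood at 293, 165, 251 and 305 CPM against 28.2, 29.6, 41.9 and 43.6 CPM and Irgm1 at 185, 174, 202 and 153 CPM against 24.8, 25.0, 33.4 and 31.8 CPM. Both lay higher in every library, and 6 of the 13 did so, against 5.30% of all genes tested.

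Genes of antigen presentation on MHC class I were higher by smaller steps. Of 22 genes, 12 were called higher, against 3.93% of all genes tested, with a median log2 difference of 0.52. Nlrc5, the transactivator of class I genes, led with 324, 119, 226 and 216 CPM against 41.3, 39.3, 50.7 and 55.1 CPM (log2 difference 2.15 ± 0.13), followed by the class Ib genes H2-T24 and H2-T22. The peptide transporter subunit Tap1 differed by 0.80 ± 0.15, its partner Tapbp by 0.99 ± 0.12, the immunoproteasome subunits Psmb8, Psmb9 and Psmb10 by 0.43 to 0.64, and B2m, the light chain of class I, by 0.50 ± 0.08. In contrast, of 11 genes for MHC class II, Ctss, the protease that trims the invariant chain, was called higher (0.51 ± 0.09) and Ciita, the class II transactivator, lower (-0.38 ± 0.10, lower in all 4 libraries). The list had a median log2 difference of -0.17, and 8 of the 11 were lower in all 4 libraries, against 15.7% of all genes tested, and 1 was higher in all 4.

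Of the lists of B cell identity and state, each had few called genes. Of all genes tested, 3.93% were called higher and 0.681% lower, beside which the counts in these short lists stand. In the B cell receptor list of 20 genes, Pik3ap1, an adaptor of PI3 kinase, was called higher (0.64 ± 0.10) and Cr2, the complement receptor CD21, lower (-0.48 ± 0.11, lower in EV 1, EV 2 and Control 2 but not in Control 1). Among 21 tested activation genes, Cd274, which encodes the inhibitory ligand PD-L1, stood at 216, 156, 147 and 116 CPM against 80.3, 69.7, 56.2 and 65.6 CPM (log2 difference 1.19 ± 0.14). The costimulatory ligand Cd86 and the early activation antigen Cd69, which retains lymphocytes in the node, differed by 0.51 ± 0.12 and 0.50 ± 0.11, and the oxysterol receptor Gpr183, which guides B cells to the outer follicle, by -0.36 ± 0.09. Of 10 naive follicular genes, Fcer2a, which encodes CD23, was called lower (-0.46 ± 0.10). Plac8 of the marginal zone and B1 list stood at 554, 504, 872 and 703 CPM against 168, 188, 275 and 211 CPM (1.69 ± 0.09). The germinal centre factor Bcl6 stood at 30.8, 91.7, 132 and 141 CPM against 146, 126, 175 and 208 CPM (-0.48 ± 0.13). In the heat shock list 3 of 12 tested were called higher inside the gate, against 3.93% of all genes tested, Hsph1, Dnaja1 and Hspa8, with 1 by DESeq2, 6 without Control 1, 1 without EV 2 and 0 without EV 1 or in thinned cells. No gene of the BCL2 family (11 tested) or of the dissociation list of early response genes (12 tested) was called.

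**Figure D3:**
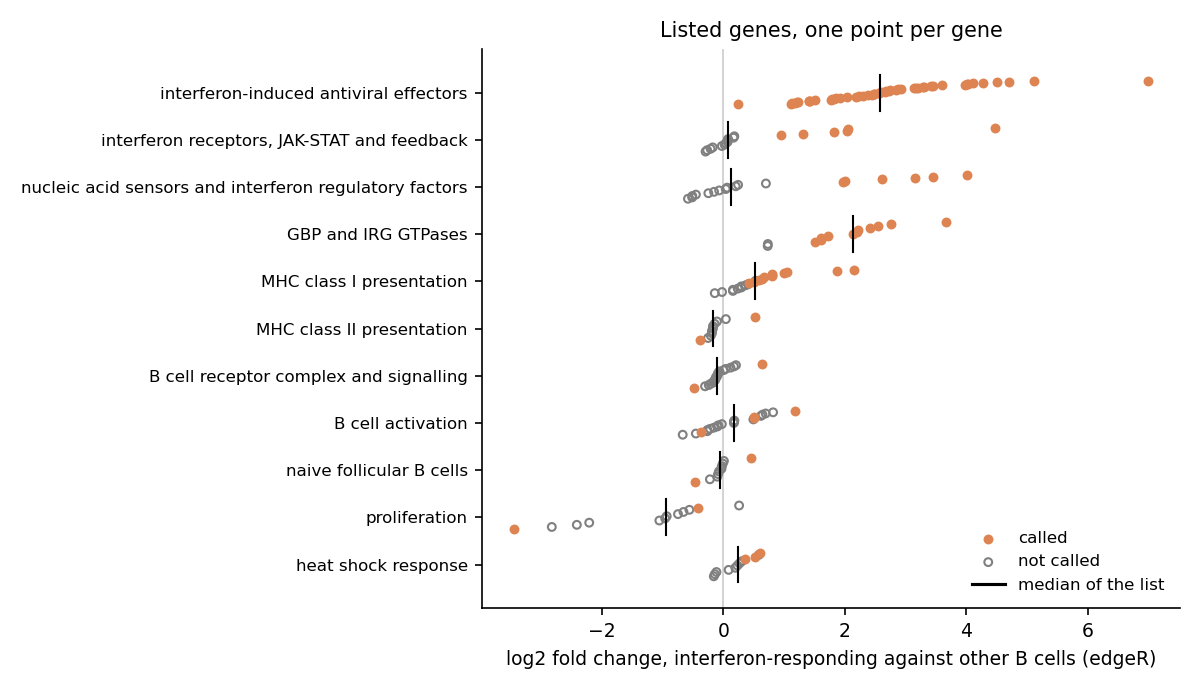
Log2 fold change of each listed gene between interferon-responding and the other B cells (horizontal axis), by list (vertical axis), with genes called at an adjusted p under 0.05 filled and the list's median as a black bar. Effectors (median 2.58) and GBP and IRG GTPases (median 2.14) lie to the right, MHC class I genes (median 0.52) less far, and the receptor, naive and MHC class II lists near 0.

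The leading falls, among genes of at least 20 CPM in 1 class, rested on at most 26 UMIs of a gene inside the gate in any library. Smaller falls such as those of Ciita, Gpr183 and Fcer2a rested on more UMIs. Jchain, which joins secreted IgM and IgA and marks plasma cells, had 0, 0, 2 and 1 UMIs inside the gate and 27.6, 13.4, 16.9 and 24.9 CPM outside it. In Control 1, 353 Jchain UMIs outside the gate came from 16 cells. Pclaf, a replication factor seen in dividing cells, had no UMI inside the gate in 3 libraries and 2.52 CPM in EV 2, against 4.68, 17.5, 13.6 and 10.5 CPM, and Hmgb2 differed by -0.42 ± 0.13. The 12 proliferation genes tested had a median log2 difference of -0.94, and the 4 switched immunoglobulin constant region genes tested a median of -1.02 with none called. The other leading falls were Tesk2, Ryr2, Lifr, Sema5a, Spcs3, Ddit4 and Dpysl2, with log2 differences from -1.42 to -1.02. Genes lower in all 4 libraries were 15.7% of those tested and genes higher in all 4 were 5.30%. In sums over 13 and 18 control cells a gene of low level is often at 0.

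The response element was counted in the promoters of the genes called between the classes. Of the genes tested with a promoter window, 3.98% held this core, a GAAA on each side of any 2 bases, on either strand. It was in 71 of 335 genes called higher (21.2%) and in 2 of 56 called lower (3.57%). By list, 21 of 45 effectors (46.7%), 10 of 11 GTPases (90.9%) and 5 of 18 MHC class I genes (27.8%) held it, whereas 0 of 15 genes of the B cell receptor list, 0 of 15 activation genes and 0 of 10 heat shock genes did. Other lists also lay above the background, with 11 of 20 interferon genes (55%), which were close to absent from these cells, 2 of 8 plasma cell genes (25.0%) and 1 of 8 MHC class II genes (12.5%). These are counts of a motif in fixed windows, some of which belong to neighbouring genes of 1 cluster, and no test was made on them.

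A second gate used none of the 3 genes. With 2 or more UMIs of Cmpk2, a mitochondrial nucleotide kinase, Usp18 and Oasl1 together, 1.63%, 2.95%, 6.85% and 7.28% of the B cells of Control 1, Control 2, EV 1 and EV 2 were taken, without overlap between groups and with a ratio of 3.08. Of the interferon-responding B cells as first defined, 10 of 13, 11 of 18, 80 of 119 and 78 of 120 passed this gate too (76.9%, 61.1%, 67.2% and 65.0%). Among the other B cells, 1.29%, 2.51%, 5.27% and 5.57% passed it. In turn, the cells of the first gate made up 21.3%, 15.5%, 25.0% and 25.7% of those taken by the second.

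A small class of cells held much of the transcripts of some genes. In the controls, interferon-responding cells were 0.452% and 0.748% of B cells and held 16.5% and 16.9% of the Ifit2 UMIs of all B cells. After EVs they were 2.55% and 2.88% of B cells and held 52.1% and 54.1%. These parts grow with the number of cells inside the gate and do not measure the level per cell. For Isg15 these parts were 6.85% and 10.0% in the controls and 45.8% and 40.7% after EVs, and for Usp18 16.5% and 17.0% against 37.5% and 40.2%. Irf7 was spread more widely, with 8.66%, 12.8%, 21.6% and 24.8% inside the gate. Over the effector list as a whole the part was 1.96%, 2.68%, 8.64% and 9.65%. Most transcripts of the summed list thus lay outside the gate in each library. Ly6e, which most B cells express, alone gave 16484, 15627, 41795 and 33963 of the list's 62772, 63126, 194789 and 161356 B cell UMIs.

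**Figure D4:**
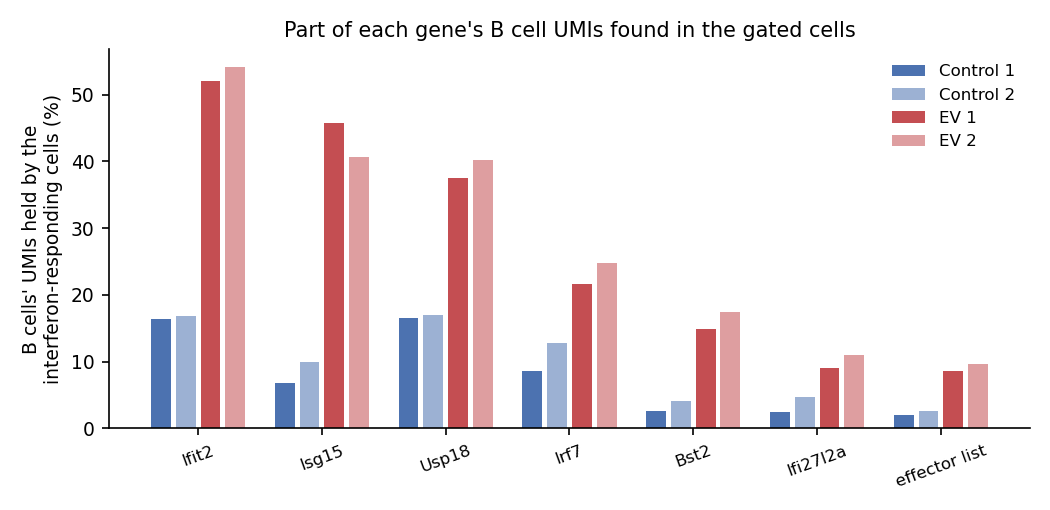
Percentage of all B cell UMIs of a gene that were found in the interferon-responding cells (vertical axis, bars from 0), for 6 genes and the summed effector list, by library. For each of them both EV bars stand above both control bars, and Ifit2 reaches 52.1% and 54.1% after EVs.

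Inside the gate, EV and control cells were compared next, on genes other than those of the rule. Of 5888 genes tested, 1 was called, which is 0.0170%, by edgeR and also 1 by DESeq2, while 445 (7.56%) had an unadjusted p under 0.05. The groups did not overlap in 41.5% of the genes tested, 22.2% with EV higher and 19.3% with EV lower. The called gene was Hspa8, the constitutive HSP70 chaperone, at 400, 504, 1338 and 1278 CPM in Control 1, Control 2, EV 1 and EV 2 (log2 fold change 1.52 ± 0.23, adjusted p = 0.016). The call was lost without Control 1 and without Control 2, with log2 changes of 1.42 and 1.78. In thinned cells it was lost as well (log2 change 2.07, adjusted p = 0.096 by edgeR). A single cell held 234 of the 1214 Hspa8 UMIs of EV 1. In the other B cells Hspa8 stood at 412, 464, 958 and 1026 CPM and also rose (1.22 ± 0.12, adjusted p = 0.0056), and the difference of the effect between the classes was not called.

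The level of the effectors inside the gate was compared between the groups as well. Cells of both groups passed the same limit on genes that move with the effectors, so that levels inside the gate are in large part set by the selection. The effector list summed to 18960 and 15516 CPM inside the gate in the controls and to 18543 and 19644 CPM after EVs, so that the groups overlapped. None of the 48 effectors tested was called by edgeR or by DESeq2, and 7 had an unadjusted p under 0.05 by edgeR, with a median log2 change of 0.21 against 0.02 over all genes tested. In 15 of them both EV libraries lay above both controls and in 4 below, where 22.2% and 19.3% of all genes tested did so. Usp18, at 246, 165, 227 and 230 CPM, changed by 0.22 ± 0.30 and Irf7, at 169, 174, 184 and 199 CPM, by 0.16 ± 0.30, neither past the threshold. With errors of this size the missing call does not show that the levels were equal.

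Isg15 and Ifitm3 stood apart in size but not in the test. Isg15 stood at 77.0, 82.5, 336 and 216 CPM inside the gate, the EV libraries above the controls, with a log2 change of 1.80 ± 0.40 and an adjusted p of 0.23 by edgeR. The control values rest on 5 and 9 UMIs in 4 and 3 cells, the EV values on 305 and 171 UMIs in 70 and 53 cells. Ifitm3 stood at 46.2, 64.2, 237 and 172 CPM (log2 change 1.85 ± 0.43, adjusted p = 0.23 by edgeR), and 1 cell of EV 1 held 89 of its 215 UMIs. Herc6, a ligase that attaches ISG15, stood at 216, 183, 402 and 497 CPM (1.20 ± 0.28, adjusted p = 0.23 by edgeR). Outside the gate, where counts were higher, all 3 genes rose after EVs: Isg15 by 0.99 ± 0.18, Ifitm3 by 2.37 ± 0.21 and Herc6 by 0.61 ± 0.11 in log2, with adjusted p of 0.041, 0.0052 and 0.042 by edgeR. For Isg15 this call was lost without Control 1, with a log2 change of 0.86. It was also lost when cells with 1 gate UMI were moved inside (log2 change 0.74, adjusted p = 0.090 by edgeR). The difference of the EV effect between the classes was called for none of the 3.

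**Figure D5:**
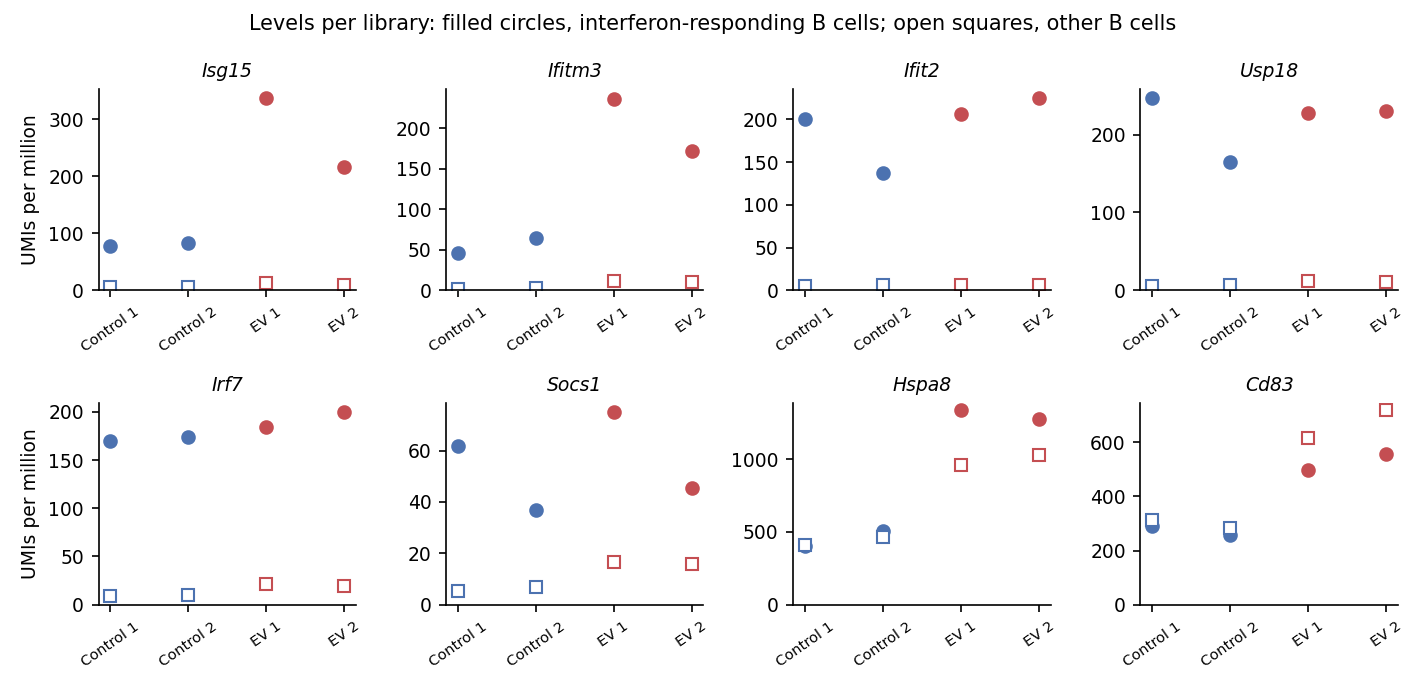
Level of 8 genes in CPM of the class (vertical axes, each from 0) in the 4 libraries, with interferon-responding B cells as filled circles and the other B cells as open squares, Control in blue and EV in red. Isg15 to Socs1 lie far above the other B cells in every library, whereas Hspa8 and Cd83 differ mainly between Control and EV.

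The B cells outside the gate also moved. Of 13076 genes tested there, 180 were called, which is 1.38%, with 112 higher (0.857%) and 68 lower (0.520%) after EVs. Of 53 effectors tested, 15 were called higher and none lower, with a median log2 change of 0.46 against -0.00 over all genes, and 42 had both EV libraries above both controls (background 18.8%). Oas2 stood at 1.87, 1.66, 5.34 and 5.80 CPM (1.70 ± 0.23, adjusted p = 0.016) and Oasl1, a relative of the oligoadenylate synthetases, at 9.92, 13.4, 23.6 and 25.5 CPM (1.12 ± 0.14, adjusted p = 0.013). Irf7 stood at 9.06, 10.3, 21.0 and 19.3 CPM (1.11 ± 0.12, adjusted p = 0.0099) and Socs1 at 5.31, 6.72, 16.7 and 15.8 CPM (1.48 ± 0.15, adjusted p = 0.0062). In each of these 4 genes the groups did not overlap. The difference of the EV effect between the classes was called in 10 of 11012 genes, which is 0.0908%, and in 0 of 50 effectors, with a median of -0.12 in log2 against 0.25 over all genes tested.

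Heat shock genes were compared between the groups in both classes. Outside the gate 8 of 13 tested were called higher after EVs, against 0.857% of all genes tested, among them Hsph1, Dnaja1, Stip1 and Hspd1. Inside the gate 1 of 10, Hspa8, was called, against 0.0170% of all genes tested, with a median log2 change of 1.00. Both EV libraries lay above both controls in 9 of 10, where 22.2% of all genes tested did so. Dnaja1, a cochaperone of HSP70, stood at 277, 257, 455 and 424 CPM inside the gate, against 159, 176, 315 and 326 CPM outside. Of 8 abundant nuclear and rRNA-like transcripts, 0 were called in either class by edgeR or DESeq2, and 6 inside and 4 outside the gate had an unadjusted p under 0.05 by edgeR. Both EV libraries lay below both controls in 6 of the 8 in each class, where 19.3% of all genes tested did so inside the gate and 32.0% outside it. The list summed to 37674, 36141, 27143 and 24374 CPM inside the gate, and EV 2 stood apart in Gm42418, an rRNA-like transcript, at 9026, 9895, 5984 and 765 CPM. The part of heat shock, of these transcripts and of depth in the other differences was not tested.

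Of the activation markers, Cd83, which stabilises MHC class II at the surface, stood at 293, 257, 498 and 558 CPM inside the gate (log2 change 0.97 ± 0.26, adjusted p = 0.36 by edgeR) and at 313, 282, 617 and 721 CPM outside it (1.21 ± 0.12, adjusted p = 0.0056 by edgeR). Egr1 and Egr3, early genes of receptor signalling, fell outside the gate by 0.77 and 0.94 in log2, with adjusted p of 0.047 and 0.013 by edgeR. Inside the gate Egr3 stood at 0, 101, 16.5 and 34.1 CPM and could not be separated from the spread between libraries.

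Interferon transcripts themselves were close to absent from the interferon-responding B cells. Of 21 interferon genes, none had a UMI in these cells except Ifng, the type II interferon. All 3 of its UMIs there lay in 1 cell, in Control 2. Over all cells of Control 1, Control 2, EV 1 and EV 2, Ifng had 48, 59, 33 and 40 UMIs, of which the larger number of cells also held a CD3 UMI. Ifnk had 14, 12, 2 and 9 UMIs, Ifnz 2, 2, 2 and 6, and Ifnab 0, 2, 0 and 2. Ifnb1 and the numbered Ifna genes had 0 UMIs in all 4 libraries, and a count of 0 allows up to 3 UMIs per library. Rarer transcripts were not detectable at this depth.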

How the data were processed

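Single-cell RNA sequencing libraries (10x Genomics, 3' chemistry) of draining lymph nodes were analysed, 2 of control and 2 of EV-treated replicates. The authors deposited UMI counts per gene and barcode, made with Cell Ranger 7.1.0 on mm10, as whole numbers without normalization. Intron handling is not given in the sources used here. Cells were filtered and gated as described above, on all 32285 features. For each class of cells in each library, counts were added up over cells and fitted with edgeR 4.0.16 (quasi-likelihood test, TMM, filterByExpr, two-sided, adjusted p under 0.05), with DESeq2 1.42.0 as an alternative, in R 4.3.3. Contrasts of classes, and of the EV effect between classes, had library as a block. Shares were compared with an exact permutation test and given with exact (Clopper-Pearson) intervals. With 2 libraries a group, p-values of edgeR and DESeq2 rest on a spread between libraries that is estimated with values pooled over genes. They do not measure the spread of a gene's own libraries alone. Barcodes were handled with Python 3.11.15 and scanpy 1.11.5, with Scrublet at an expected rate of 6% as an alternative and no removal of doublets in the main setting.

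The cells, gene lists and tests were chosen with earlier results of these data known. Named genes were the rule genes and Isg15, the 15 largest rises and 8 largest falls between classes (called, same direction in 4 libraries, at least 20 CPM in 1 class), the 8 largest rises and falls between groups without overlap, the genes called in the interaction and the called members of the lists. Of 357 entries in the lists, 5 were not analysed here. Some listed genes are not reported here. The dendritic cell, plasma cell and germinal centre marker lists were checked as well. Alternatives were RLE size factors, no filter on low counts, library sizes without technical genes, other cell filters, other gates, thinning to 2000 UMIs, a replicate block and each library left out in turn. Scripts were tested on simulated data.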

Additional observations from a re-analysis of the deposited data

Results flagged for a closer look

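The EV effect differed between interferon-responding and the other B cells in 10 of 11012 genes by a test of the difference itself (interaction with library as a block, edgeR's quasi-likelihood test). It was larger inside the gate for Lyz2 (log2 difference 5.01), Tmsb4x (0.46), Serinc3 (0.87) and Jarid2 (1.30). It was smaller inside the gate for Gzma (-14.24), Nkg7 (-12.19), Nrgn (-5.59), Gm2682 (-3.72), Samsn1 (-1.38) and St6galnac3 (-0.94). With DESeq2 1 of the 10, Gzma, was called, and the calls of Serinc3, Tmsb4x and Jarid2 among the others were lost. Gm2682, Nrgn, Samsn1, St6galnac3 and Lyz2 turned direction under other settings, given below. Single cells held most of the counts of several of these genes. In Control 2, 1 cell held 35 of 35 Gzma, 11 of 11 Nkg7, 31 of 33 Nrgn, 24 of 40 Samsn1 and 8 of 11 Gm2682 UMIs inside the gate. Gzma and Nkg7 had no UMI inside the gate in the other 3 libraries, so that their differences rest on 1 cell over zeros and carry no weight as an EV effect. In Control 1, 1 cell held 37 of 56 St6galnac3 UMIs, and 1 cell each in EV 1 and EV 2 held 347 of 368 and 101 of 108 Lyz2 UMIs. Serinc3, a membrane protein of the serine incorporator family, stood at 308, 514, 764 and 674 CPM inside and at 673, 644, 681 and 648 CPM outside the gate in Control 1, Control 2, EV 1 and EV 2. Tmsb4x, an actin-binding thymosin, stood at 4390, 6062, 7084 and 5930 CPM against 5791, 6465, 6537 and 5787 CPM. Jarid2, a cofactor of Polycomb complexes, stood at 216, 91.7, 264.5 and 280 CPM against 318, 309, 276 and 280 CPM.

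Cells with both a CD3 and a Cd79a UMI are part of no comparison above. Of them, 27 of 543 (4.97%) in Control 1 and 16 of 430 (3.72%) in Control 2 had 2 or more gate UMIs, against 34 of 606 (5.61%) in EV 1 and 56 of 643 (8.71%) in EV 2, above the level of the controls.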

How the results depend on the processing

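The higher share of interferon-responding B cells after EVs kept its direction under every alternative run. The difference of 2.115 percentage points became 3.782 with a gate at 1 UMI, 1.342 with a gate at 3 UMIs, 0.834 with cells thinned to 2000 UMIs, 4.772 with the gate on Cmpk2, Usp18 and Oasl1 and 1.86 with cells of 2000 to 8000 UMIs, and ran from 1.947 to 2.283 with 1 library left out. Counts of called genes moved more, and the cause was not tested. Between the classes, 508 genes became 269 with DESeq2, 151 in thinned cells and 249 to 559 with 1 library left out (260 without EV 1, 249 without EV 2). Between groups inside the gate, 1 became 34 without a filter on low counts, 11 with a replicate block, 30 with a gate at 1 UMI, 0 in thinned cells, 4 without upper limits on cells and with mitochondrial UMIs under 5% (both changed together, also below), 2 with doublets removed, 3 with the strict B cell rule and 1 to 16 with 1 library left out. Outside the gate, 180 became 379 with DESeq2, 1218 without the filter, 1203 with a replicate block, 327 in thinned cells, 456 with both cell limits changed, 300 with the strict rule and 66 to 2444 with 1 library left out (66 without Control 1, 378 without Control 2, 1118 without EV 2, 2444 without EV 1). Over all B cells, 207 became 405 with DESeq2, 1101 without the filter, 762 with a replicate block, 359 in thinned cells, 559 with both cell limits changed, 353 with the strict rule and 152 to 2352 with 1 library left out. The difference of the EV effect was called in 10 genes, 1 with DESeq2, 73 in thinned cells, 17 with both cell limits changed, 6 with the other gate and 2 to 18 with 1 library left out. The lone library of a group is then assumed to vary like the other group.

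The labels do not say what a shared replicate number stands for, and same-numbered deviations in the other B cells had a correlation of r = 0.00021 over 13080 genes, so that the libraries were not treated as paired. With 2 libraries a group this is a single correlation and does not settle the pairing. Of 112 genes named between the classes, 68 kept direction and call throughout, as did 20 of 50 between groups outside the gate, 26 of 55 over all B cells, 0 of 1 inside the gate and 1 of 10 in the difference of the EV effect. Directions turned for Hspa8 between the classes (-0.01 in thinned cells) and, in the difference of the EV effect, for Gm2682 (-5.49 to 7.91 with 1 library left out, 7.91 being without Control 2, 0.67 thinned), Nrgn (-13.48 to 7.84, the latter without Control 2, 7.22 with a gate at 3 UMIs, 1.58 with the other gate), Samsn1 (-1.92 to 0.08, the latter without Control 2, 0.85 thinned), St6galnac3 (-1.82 to 0.04, the latter without Control 1, 0.41 thinned, 0.03 with the other gate) and Lyz2 (-0.37 with the other gate). Depth also limits the comparison inside the gate, where the 13 and 18 control cells summed to 64925 and 109046 UMIs, against 907284 and 792526 after EVs.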

Other observations

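Several genes of other functions changed after EVs in the B cells outside the gate. Lifr, the receptor of leukemia inhibitory factor, stood at 7.18, 7.75, 48.8 and 59.7 CPM in the other B cells of Control 1, Control 2, EV 1 and EV 2 (log2 change 2.90 ± 0.14, adjusted p = 1e-04 by edgeR). Inside the gate it had no UMI in the controls and stood at 24.3 and 24.0 CPM after EVs. Kcnk13, a potassium channel gene, stood at 3.05, 3.32, 11.5 and 23.5 CPM outside the gate and at 15.4, 0, 15.4 and 29.0 CPM inside it. Of the genes that fell outside the gate, Hist1h3e and Hist1h4h encode histones, with Hist1h3e at 26.4, 20.6, 9.04 and 6.33 CPM and Hist1h4h at 16.1, 8.85, 4.16 and 2.46 CPM. Klf4, a factor of quiescence, fell there too, at 19.0, 14.5, 6.76 and 6.25 CPM, and stood at 30.8, 9.17, 9.92 and 10.1 CPM inside the gate, from 2, 1, 9 and 8 UMIs. Kcnip1, Pebp4, Gm30382, 1810046K07Rik and Slc36a3 fell at levels under 10 CPM. Chil3, Hp, Fn1, F13a1 and Vcan, genes of monocytes and macrophages, and Plcb1 had at most 3 UMIs each in either control library and stood at 0.726 to 5.20 CPM outside the gate after EVs, so that they passed the filter on low counts through the EV libraries and their calls carry no weight. Their UMIs came from few cells, in EV 1 67 Chil3 UMIs from 3 cells, 42 Hp UMIs from 5 and 150 F13a1 UMIs from 7.

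Cdk8, the kinase of the Mediator complex, stood at 755, 440, 255 and 68.1 CPM inside the gate and at 728, 414, 254 and 89.5 CPM outside it. Both EV libraries lay below both controls in each class, with a log2 change of -1.80 ± 0.44 inside (adjusted p = 0.25 by edgeR) and -1.68 ± 0.42 outside (adjusted p = 0.091 by edgeR), and the difference between the classes was -0.01. The gene was chosen here after its values were seen. The rRNA-like transcripts Gm42418 and AY036118 also lay lower in both EV libraries than in both controls and were lowest in EV 2, and their part in the level of Cdk8 was not tested.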
